A study of Mus musculus with 3 samples.

Results

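Replication-dependent histone genes encode the histones that package newly made DNA. They were taken as every counted feature whose symbol follows the current naming of these genes, H1f1 to H1f5 and the numbered H2ac, H2bc, H3c and H4c genes. The rule found 66 of the 33696 features: 5 genes of the linker histone H1, 18 of H2A, 18 of H2B, 12 of H3 and 13 of H4. Of these 66, 63 had at least 1 UMI (unique molecular identifier, a tag that marks 1 captured RNA molecule) in the cells kept, and 194335 UMIs fell on them in all. H2ac1, H2ac19 and H2bc1 were at 0 in every kept cell, though reads of close copies such as H2ac19 could have been dropped (below).

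The cells were tdTomato-positive cells sorted from the larynges of Lrig1CreERT2/+; ROSA26CAG-LSL-tdTomato/+ mice, which carry a tamoxifen-inducible Cre in 1 Lrig1 allele and a reporter that Cre switches on. Each of the 3 single-cell libraries was a pool of 10 larynges, 5 from males and 5 from females, taken 24 h after tamoxifen-induced recombination, and no age is given in the sources used here. WT and ROSA26CAG-LSL-tdTomato/+ mice only set the sorting gates and have no library. The 3 libraries are therefore 1 condition, the comparisons are between groups of cells summed within each library, and the label marks cells in which the Lrig1 allele drove Cre, not a cell type.

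Most mRNAs end in a poly(A) tail. Replication-dependent histone mRNAs are the known exception: their 3′ end is cut just after a short hairpin, the stem-loop, which is bound by the stem-loop binding protein Slbp. They are made in S phase, when DNA is copied, and are broken down quickly when replication stops. The genes lie in clusters, most have no intron, and several are close copies of each other. Some of them are also known to make longer, polyadenylated mRNAs in cells that no longer divide. The library kit here primes reverse transcription on poly(A), so the UMIs of these genes count the molecules that such priming reached. How much of the stem-loop-ended mRNA this misses was not tested.

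The stem-loop was looked for in the first 150 bases after the stop codon, as a 16-base hairpin with a 6-base stem and a 4-base loop, in the GRCm39 genome with a GENCODE annotation of that build. This pattern was found in 62 of the 66 members (93.9%) and in 9 of 21704 other protein-coding genes (0.0415%). In the members it lay 22 to 59 bases after the stop codon (median 32). H2ac22, H2bc21, H2bc23 and H2bc24 had no match of the pattern in that window. The 7 below are shown because they carry the results that follow or differ in the hairpin. The hairpin is in capitals, with the bases on either side in lower case, on the strand of the gene.
H1f5: caaaGGCTCTTTTCAGAGCCacctagag
H1f4: caaaGGCTCTTTTCAGAGCCacccacaa
H2bc4: caaaGGCTCTTTTCAGAGCCacccactt
H3c3: aaaaGGCTCTTTTAAGAGCCacctaaga
H4c4: caaaGGCCCTTTTCAGGGCCactacctt
H2ac20: aaaaGGCTCTTTTTAGAGCCaccaaatc
H4c2: aaaaGGTCCTTTTCAGGACCactcactg

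Each printed stretch follows the stop codon of its gene. That of H1f5 is at chr13:21963999-21964026 on the minus strand, past the end of its annotated gene model. That of H1f4 is at chr13:23805757-23805784 on the minus strand and that of H2bc4 at chr13:23868626-23868653 on the plus strand. H3c3 has it at chr13:23929022-23929049 on the minus strand and H4c4 at chr13:23765929-23765956 on the plus strand. H2ac20 has it at chr3:96127726-96127753 on the minus strand and H4c2 at chr13:23941345-23941372 on the plus strand. The hairpin of H1f5, H1f4 and H2bc4 is the commonest form and was shared letter for letter by 39 members, none of them H4 genes. The form of H4c4 occurred in 8 members, all of them H4 genes, and that of H3c3 in 8 members of H2A, H2B and H3. Of the 13 H4 genes, 11 had the stem of H4c4 and the other 2, H4c2 and H4c11, had the stem of H4c2.

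Of 60530 barcodes, 44542 cells were kept, 13222, 7201 and 24119 in libraries 1, 2 and 3, with a median of 10876, 14259 and 10648 UMIs. Between 46 and 165 barcodes were shared by a pair of libraries. A group of 3759 cells, cluster 25, came almost wholly from library 3 (3757 cells). All levels below are counts-per-million (CPM) values, from the UMIs of the cells summed. Each molecule is counted at its 3′ end, so the CPM needs no scaling by gene length.

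Cells were called cycling when at least 4 of Mki67, Top2a, Cdk1, Birc5 and Cenpf, genes of the G2 and M phases for the most part, had a UMI, and unmarked when none had. There were 90, 23 and 346 cycling cells in libraries 1, 2 and 3, or 0.681%, 0.319% and 1.43% of the kept cells, and 12286, 6609 and 18470 unmarked cells. A further 6718 cells with 1 to 3 of the 5 genes entered neither group. Cycling cells were deeper, with medians of 21433, 29768 and 23514 UMIs against 10544, 13736 and 11173 in unmarked cells. A CPM does not rise with depth itself, but the chance of seeing 4 markers does.

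Summed over the 66 members, the level was 3640.1, 3719 and 2335 CPM in the cycling cells of libraries 1, 2 and 3, and 315, 396 and 236 CPM in the unmarked cells. The cycling sums were 11.6-, 9.39- and 9.88-fold higher, and the lowest of them lay far above the highest unmarked sum. Of the 55 members that passed the filter on low counts, 49 were higher in cycling cells and none was lower in edgeR's quasi-likelihood test at an adjusted p of 0.05. Over all 18022 genes tested, 15.0% were called higher and 20.5% lower. In 52 of all 66 members, 50 of them among the 55 tested, every library's cycling level lay above every library's unmarked level. Over all genes tested, 15.5% were separated in this way. Many members passed the filter only through their counts in cycling cells and had to differ. The count of 49 therefore describes the members that could be tested and gives no support of its own. The same holds for the counts by family below. The 49 log2 fold changes ran from 1.47 (H2bc6) to 10.79 (H2ac10), and each of the 49 was higher in all 3 libraries. The 5 marker genes were left out of the test. Without cluster 25 the sums were 3644, 3719 and 2377 CPM against 315, 396 and 235 CPM, and 49 members were again higher.

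The cycling cells were not spread over cell types as the unmarked cells were. Of 459 cycling cells, 191 were Basal-like and 259 in clusters without a name. Of the latter, 199 were in cluster 4 (1174 cells), which raised 8 of 8 cycling markers and had Krtdap, Sprr1a and Krt13, genes of squamous epithelium, among its leading genes. Within Basal-like cells alone, the summed level was 3106, 3429 and 1937 CPM in cycling and 330.1, 439 and 239 CPM in unmarked cells of libraries 1, 2 and 3. There 36 of 42 members tested were higher and none was lower, where 10.2% of all 13878 genes tested in these cells were called higher and 7.58% lower. The cycling sums there came from 44, 9 and 138 cells. Members that passed the filter only through cycling cells had to differ here too, so the count of 36 gives no support of its own. Of the 191 cycling cells, 181 were in cluster 6, whereas most unmarked Basal-like cells of libraries 1 and 2 were in cluster 2 (818 of 1530 and 999 of 1481) and those of library 3 in cluster 6 (1860 of 2952).

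H1 genes made the largest part of the histone UMIs in cycling cells, between 51.8% and 61.6% of the summed level. Their share was 49%, 54.6% and 47.1% in the unmarked cells of libraries 1, 2 and 3 and 55.8%, 51.8% and 61.6% in cycling cells, so it was lower in the cycling cells of library 2. H1 is the linker histone that binds DNA between nucleosomes, and its 5 genes are paralogs that differ in sequence. All 5 were called higher in cycling cells, against 15.0% of all genes. The joint level of the 5 was 1798 ± 316 CPM (mean ± SD, n = 3) against 161 ± 52.8 CPM. H1f5 had the highest level of all members in cycling cells, 961, 850.4 and 674 CPM in libraries 1, 2 and 3, against 3.30, 5.49 and 4.03 CPM in unmarked cells. The groups were more than 100-fold apart in every library, and the log2 fold change was 7.70 ± 0.27 (SE; edgeR adjusted p = 1.7e-06). H1f4 came second, with 578, 554 and 418 CPM against 87.9, 125 and 58.3 CPM. It was also the highest member of unmarked cells, so its rise was smaller, 2.60 ± 0.28 on the log2 scale (edgeR adjusted p = 4.4e-04).

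H1f2 followed the pattern of H1f4, with 261, 250.2 and 185 CPM in cycling cells against 56.9, 76.5 and 43.1 CPM, a log2 fold change of 2.06 ± 0.23 (edgeR adjusted p = 5.2e-04). H1f3 reached 162, 195 and 112 CPM against 6.12, 8.64 and 5.66 CPM. H1f1 had 69.1, 75.2 and 49.1 CPM in cycling cells and stayed under 1 CPM in the unmarked cells of every library, at 0.256, 0.596 and 0.392 CPM. The 5 H1 genes thus spanned folds of means from 3.95 for H1f2 to 194 for H1f5.

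H2A and H2B form the dimers on either side of the nucleosome core. The H2A genes summed to 419 ± 138 CPM in cycling and 26.7 ± 4.17 CPM in unmarked cells, 15.7-fold by the means. Of 13 tested, 12 were higher, against 15.0% of all genes. H2ac8 was highest, with 110.0, 139 and 58.9 CPM in libraries 1, 2 and 3 against 1.17, 1.64 and 1.04 CPM. H2ac20 had 92.7, 60.5 and 79.0 CPM against 6.25, 9.04 and 4.57 CPM. In both genes the groups were well apart. The largest fitted rise of any member was that of H2ac10, from 0, 0.0101 and 0.0264 CPM to 36.7, 24.5 and 17.8 CPM. Its fitted log2 fold change of 10.79 ± 0.68 depends on the prior count of the fit, since library 1 had no H2ac10 UMI in unmarked cells, and its p is left out for the same reason as that of H3c3 below. H2ac25 was the exception among the H2A genes, with 17.8, 34.3 and 15.6 CPM in cycling against 14.1, 14.6 and 14.6 CPM in unmarked cells. All 3 cycling values lay above the unmarked ones, that of library 2 the most, and its log2 fold change of 0.60 ± 0.27 did not pass (edgeR adjusted p = 0.121).

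The H2B genes summed to 393 ± 72.0 CPM in cycling and 71.5 ± 7.89 CPM in unmarked cells, 5.50-fold by the means, the smallest fold of the 5 families. Of 14 tested, 13 were higher, against 15.0% of all genes. H2bc4 alone held most of the H2B level in unmarked cells, with 55.3, 42.3 and 52.6 CPM in libraries 1, 2 and 3 against 213, 203 and 184 CPM in cycling cells, a log2 fold change of 2.09 ± 0.13 (edgeR adjusted p = 2.3e-05). The rise of H2bc4 was smaller under other choices of cells. With looser limits it was at 124, 164 and 111 CPM in cycling against 57.3, 44.4 and 53.3 CPM in unmarked cells. With cells thinned to 5000 UMIs it was at 128, 109 and 134 CPM against 53.3, 40.3 and 53.8 CPM. H2bc6 had 17.0, 13.9 and 13.6 CPM in unmarked and 48.7, 44.2 and 26.8 CPM in cycling cells. The other H2B genes were low in unmarked cells, and H2bc14 rose most in the fit, from 0.0552, 0.0909 and 0.106 CPM to 34, 19.6 and 12.5 CPM (log2 8.08 ± 0.54). H2bc21 had 5.76, 3.27 and 9.63 CPM in cycling against 3.30, 2.60 and 4.02 CPM in unmarked cells, and the groups overlapped. It missed the threshold (edgeR adjusted p = 0.0519) and passed it with the library as a block (edgeR adjusted p = 0.0456), where 17.2% of all genes were called higher.

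H3 and H4 form the tetramer at the centre of the nucleosome. The H3 genes had the largest fold of the families, 194 ± 68.0 CPM in cycling against 6.08 ± 1.12 CPM in unmarked cells, 32-fold by the means. Of 11 tested, 9 were higher, against 15.0% of all genes. H3c3 led them with 91.7, 91.6 and 58.8 CPM in libraries 1, 2 and 3, against 0.0552, 0.0707 and 0.150 CPM in unmarked cells. The fitted log2 fold change was 9.71 ± 0.38. H3c3 had 8, 7 and 34 UMIs in unmarked cells and passed the filter only through cycling cells, so its p is not given. H3c2 rose from 0.00691, 0.0101 and 0.0176 CPM to 5.76, 19.6 and 3.12 CPM (log2 9.19 ± 0.90), a rise that rests on 1 to 4 UMIs in the unmarked cells of each library. H3c14 and H3c15 did not pass. H3c15 had 1.05, 0 and 0.521 CPM in cycling against 0.849, 0.566 and 0.961 CPM in unmarked cells, and was the one tested member with a negative log2 fold change (-0.27 ± 0.63).

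The H4 genes summed to 427 ± 207 CPM in cycling and 50.8 ± 26.9 CPM in unmarked cells, 8.40-fold by the means. Of 12 tested, 10 were higher, against 15.0% of all genes. The H4 genes also differed most between libraries. H4c4 had 320.0, 376 and 131 CPM in the cycling cells of libraries 1, 2 and 3 and 36.2, 59.5 and 15.1 CPM in the unmarked cells, so that library 3 was lowest in both groups (log2 2.94 ± 0.55, edgeR adjusted p = 0.00506). H4c8 showed the same order of libraries in cycling cells, with 47.1, 113 and 21.2 CPM against 5.22, 6.13 and 2.31 CPM. H4c14 had 1.57, 6.54 and 1.82 CPM against 2.49, 2.66 and 1.69 CPM and H4c16 5.76, 1.64 and 3.51 CPM against 1.88, 3.20 and 1.34 CPM. In both the groups overlapped and the test was not passed.

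The 11 members that did not pass the filter had few UMIs in all. H2ac1, H2ac19 and H2bc1 had none, and H2bc23 had a single UMI, in an unmarked cell of library 2. H2ac11, H2ac12, H2ac23, H2bc13, H2bc22 and H3c10 had between 6 and 39 UMIs in the kept cells. H4c17 had 83 UMIs, at 3.14, 0 and 0.781 CPM in cycling and 0.110, 0.111 and 0.123 CPM in unmarked cells, and the groups overlapped. Of the 90-base transcript windows of H2ac19, 100% also stood in another member. The share was 95.8% for H2bc23, 93.2% for H3c10, 92.8% for H2ac23, 89.6% for H2ac12 and 88.5% for H4c17. It was 76.8% for H2ac11, 66.8% for H2bc13, 29.8% for H2bc1, 29.3% for H2bc22 and 0% for H2ac1. Reads common to copies could have been split or dropped, so a low count of such a gene does not show a low level.

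**Figure D1:**
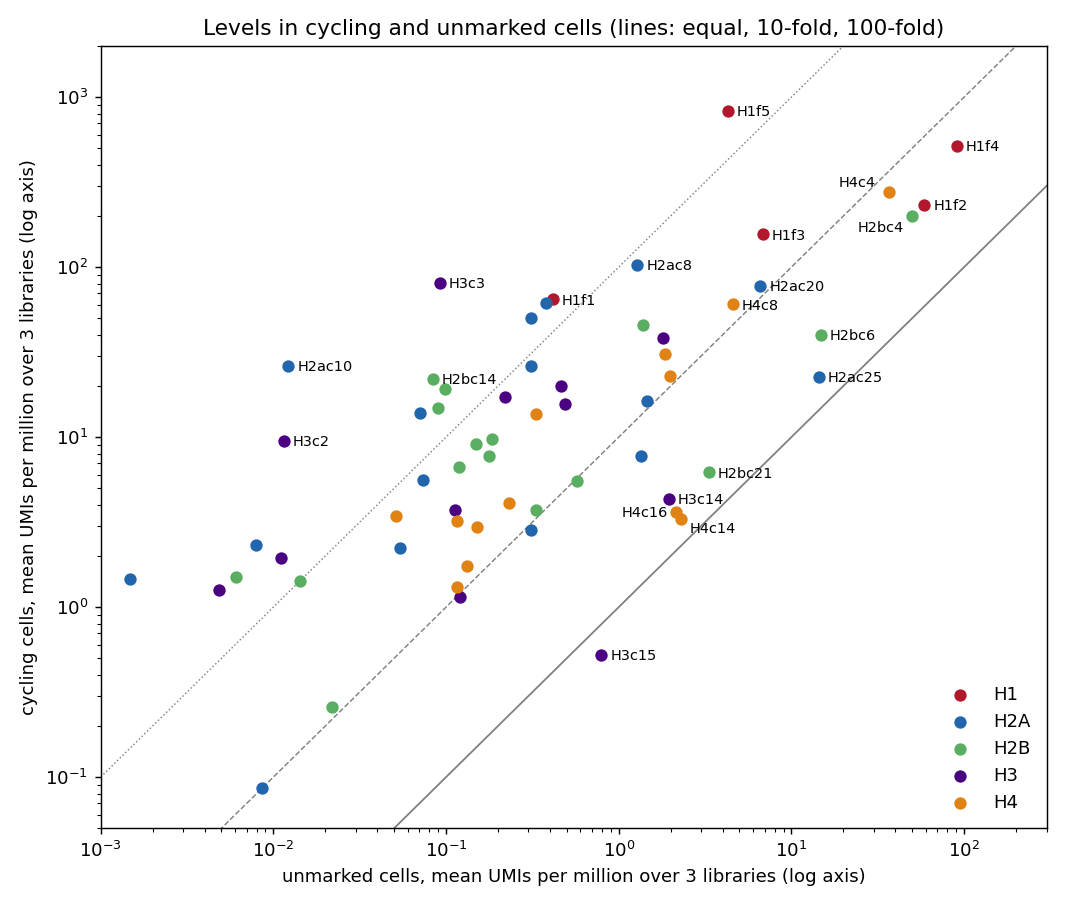
Mean level of each member with a UMI in both groups in cycling cells (vertical) against unmarked cells (horizontal), in CPM (mean of 3 libraries), both axes logarithmic, coloured by family; the lines mark equal, 10-fold and 100-fold levels. H1f5 sits at 828 CPM above the 100-fold line, H1f4, H1f2, H4c4 and H2bc4 lie at the upper right below the 10-fold line, and H3c15 falls under the line of equal levels.

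In single cells the signal was spread over many genes. The median cycling cell had UMIs of 10, 14 and 7 members in libraries 1, 2 and 3, and the median unmarked cell of 2, 3 and 2 members. At least 100 member UMIs were found in 27.8%, 26.1% and 18.5% of cycling cells of libraries 1, 2 and 3, whereas no unmarked cell had more than 48, 73 and 75. The median over all cycling cells was 27.5, 42 and 21 member UMIs, against 2, 4 and 2 in unmarked cells. These are values as counted, and cycling cells were deeper.

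Because cycling cells were deeper, shares of cells with a UMI were also taken after each cell was thinned to 5000 UMIs, which left out shallower cells. With the markers counted after thinning, 47, 11 and 176 cells were cycling. The shares instead use the labels from full depth, with 82, 22 and 317 cycling and 9028, 5636 and 14976 unmarked cells. They thus equalize the counts and not the labelling. H1f5 then had a UMI in 43.9%, 50% and 40.1% of cycling cells against 1.32%, 2.54% and 2.22% of unmarked cells. As counted, the same shares were 60%, 78.3% and 58.1% against 2.98%, 5.21% and 4.1%. H3c3 had one in 23.2%, 22.7% and 15.1% against 0.0332%, 0.0532% and 0.114%. H2bc4, by contrast, was seen in 45.1%, 36.4% and 44.8% against 19.8%, 15.5% and 20.8%. H2ac25 was seen in 7.32%, 9.09% and 8.2% of cycling cells (95% Wilson intervals 3.40% to 15.1%, 2.53% to 27.8% and 5.66% to 11.7%) and in 6.50%, 6.72% and 6.95% of unmarked cells. Free RNA in the droplets can place a UMI in a cell that does not make the mRNA, and the unmarked shares of H1f5 and H3c3 were not separated from it.

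The sum of the members rose with the number of the 5 cycling markers a cell had. It was 315, 363, 576, 762, 1704 and 4938 CPM in cells of library 1 with 0, 1, 2, 3, 4 and 5 markers, and 236, 253, 345, 507, 863 and 2996 CPM in library 3. Library 2 ran from 396 to 4836 CPM, with 389.8 CPM at 1 marker. H1f5 climbed through every step of libraries 1 and 3, to 1419 and 938 CPM at 5 markers. H2bc4 did not follow. It peaked at 4 markers, at 295, 306 and 235 CPM in libraries 1, 2 and 3, and was 158, 144 and 160.4 CPM at 5 markers, lower in all 3 libraries. H2ac25 stayed between 13 and 49.4 CPM, and its highest value came from the 9 cells of library 2 with 4 markers.

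**Figure D2:**
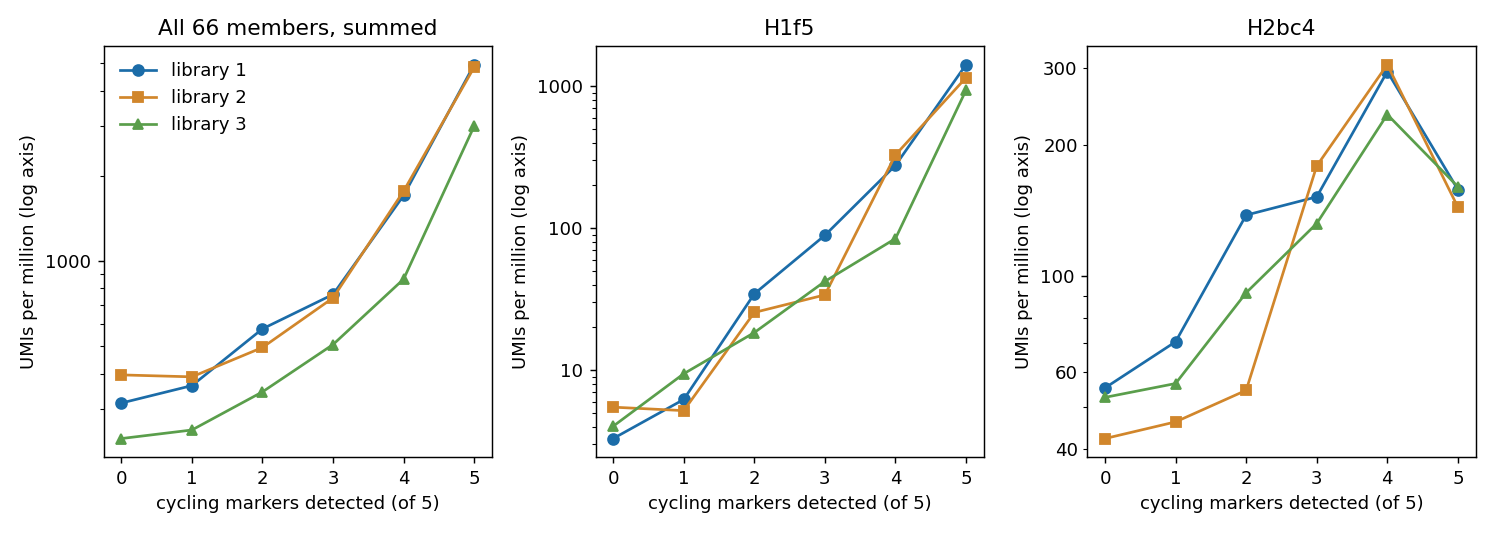
Level in CPM (vertical, logarithmic) in cells grouped by how many of the 5 cycling markers had a UMI (horizontal, 0 to 5), 1 line per library. The summed members and H1f5 rise to their highest level at 5 markers, whereas H2bc4 is highest at 4 markers (295, 306 and 235 CPM) and lower at 5 (158, 144 and 160.4 CPM).

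Cycling cells were then split by genes of DNA replication. Clspn, Dtl, Cdc45, Gins2 and Uhrf1 act at or before the replication fork or in copying its DNA methylation. Cycling cells with at least 3 of these genes numbered 27, 8 and 112, and cycling cells with none 36, 6 and 107. The members summed to 6703, 5703 and 3849.7 CPM in the former and 1433, 1115 and 978 CPM in the latter. The 2 sums were 4.68-, 5.12- and 3.94-fold apart and did not overlap. Of the 27 members that could be tested, 20 were higher with the replication markers and 1, H2bc4, was lower, where over all 8580 genes tested 5.05% were called higher and 0.466% lower. Here too, members such as H2ac24, H2ac22 and H2bc14 passed the filter through the cells with replication markers and had to differ, so the count of 20 gives no support of its own. The replication-marked cells were the deeper ones, with medians of 27767, 31109 and 30409.5 UMIs against 17201, 30226 and 19271 UMIs.

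H1f5 carried the largest part of this difference, with 2142, 1357 and 1371 CPM in libraries 1, 2 and 3 against 126, 54.4 and 68.0 CPM (log2 4.26 ± 0.32, edgeR adjusted p = 2.9e-06). H1f4 had 1096, 938 and 704 CPM against 203, 114 and 128 CPM. H4c4 had 639.7, 529 and 238 CPM against 95.9, 76.1 and 23.4 CPM. In all 3 genes the groups stood well apart.

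The largest fitted rises were those of H2ac24, H2ac15 and H2bc14. H2ac24 had 138, 165 and 56.4 CPM against 0, 5.44 and 1.06 CPM (log2 6.51 ± 0.68). H2ac15 had 81.7, 59.9 and 27.4 CPM against 4.57, 0 and 0.531 CPM (log2 5.03 ± 0.72), and H2bc14 had 71.9, 49.9 and 25.8 CPM against 4.57, 0 and 0.531 CPM (log2 4.84 ± 0.71). In each of them 1 library had no UMI in the cells without replication markers, so these values depend on the prior count of the fit.

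H2bc4 went the other way. It had 39.5, 115 and 60.2 CPM in cycling cells with replication markers and 319.8, 283 and 328 CPM in those without, a log2 fold change of -2.29 ± 0.29 (edgeR adjusted p = 1.2e-04). The groups did not overlap. At full depth H2bc4 thus had a higher level than H1f5 in cycling cells without replication markers, an order that turned when cells were thinned (below). In cycling cells with the markers H1f5 was more than 10-fold higher than H2bc4 in every library. H1f2 did not separate the groups, with 216, 279 and 169 CPM against 317, 190.3 and 196 CPM (log2 -0.13 ± 0.26, edgeR adjusted p = 0.871). H2ac25 had 8.45, 9.98 and 13.9 CPM against 16.8, 54.4 and 17.0 CPM and H4c9 had 19.7, 15.0 and 22.7 CPM against 39.6, 65.3 and 34.5 CPM. Both were lower in every library with the markers, but neither passed (edgeR adjusted p = 0.381 and 0.125). H2bc6 had 64.8, 89.8 and 29.9 CPM against 32, 21.8 and 21.3 CPM, and passed with the library as a block (edgeR adjusted p = 0.0497) and not without it (0.17). Over all genes tested 7.51% were called higher under the block.

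**Figure D3:**
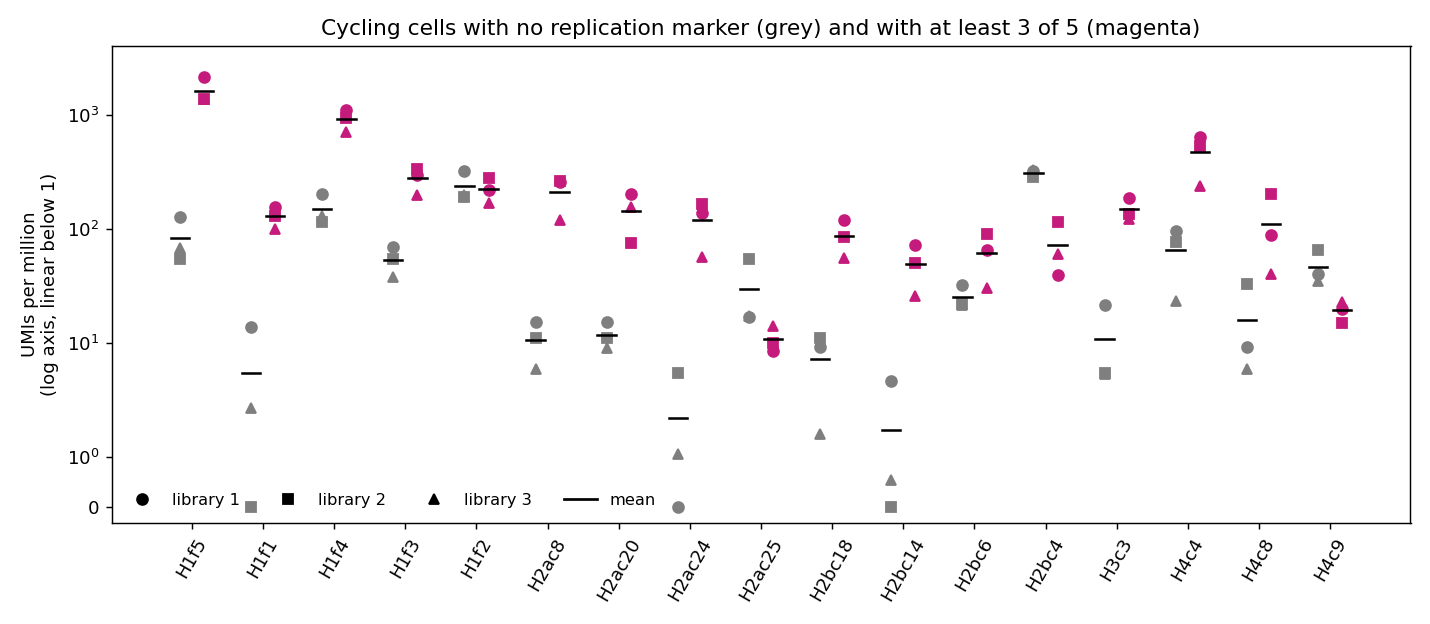
Level in CPM (logarithmic axis) of 17 members in cycling cells with at least 3 of 5 replication markers and with none, 1 point per library and group. H1f5 is at 2142, 1357 and 1371 CPM with the markers and 126, 54.4 and 68.0 CPM without, and H2bc4 is the reverse, at 39.5, 115 and 60.2 CPM with and 319.8, 283 and 328 CPM without.

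The split within cycling cells rests on few cells, 6 to 112 a group, and a cell was kept only with up to 40000 UMIs. With each cell thinned to 5000 UMIs before the markers were counted, 5, 0 and 13 replication-marked cycling cells remained. H1f5 was then at 1960 and 2000 CPM in libraries 1 and 3 against 400 and 395 CPM, and H2bc4 at 40.0 and 30.8 CPM against 175 and 171 CPM. In library 2 the cycling cells without these markers, which had no counterpart, were at 1143 CPM for H1f5 and 143 CPM for H2bc4. Without the markers H1f5 was thus above H2bc4 in every library, the reverse of the order at full depth. On these few cells H1f5 still passed (edgeR adjusted p = 0.00289) and H2bc4 did not (edgeR adjusted p = 0.0940). With looser limits on cells, which kept the deepest barcodes and possible doublets, H2bc4 was at 36.4, 83.9 and 49.8 CPM against 361, 419 and 269 CPM.

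In the cells kept, most of the histone UMIs were in unmarked cells, which were by far the most numerous. They had 78.3%, 85.1% and 59.6% of all member UMIs of libraries 1, 2 and 3, and 90.1%, 89.2% and 76.0% of all UMIs. For single members this share ran from 2.87% (H2ac10) to 85.7% (H4c14), leaving out H2bc23, which had a single UMI. Of H1f5 UMIs 18.3% were in unmarked cells and 71.1% in cycling cells, and of H3c3 UMIs 6.12% and 85.3%. Of H1f4 UMIs 77.1% were in unmarked and 9.35% in cycling cells, of H2bc4 UMIs 75.1% and 6.04%, and of H2ac25 UMIs 82.0% and 2.11%.

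In the unmarked cells of every library 16 members reached at least 1 CPM. The 4 highest, H1f4, H1f2, H2bc4 and H4c4, made up between 71.5% and 76.6% of the summed level. After them came H2bc6, H2ac25, H1f3, H2ac20, H4c8 and H1f5, with means of 14.8, 14.4, 6.80, 6.62, 4.56 and 4.27 CPM. These genes did not keep the same level between libraries. Of the 16, 11 were highest in library 2 and 10 lowest in library 3, and H4c4 differed most, 3.94-fold between libraries 2 and 3. H3c14 went the other way, with a ratio of 0.620. H2ac25 was nearly flat at 14.1, 14.6 and 14.6 CPM. Library 3 also differed from the others in its share of cells with 1 to 3 markers, 22% against 6.40% and 7.90%. Whether the 2 observations are related was not tested.

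The members with the highest levels in unmarked cells can be described from the annotation. In 14 members the annotated gene model ran at least 700 bases past the stem-loop, among them H2bc4 (9518 bases), H1f3, H2bc6, H2ac25 (1643 bases), H1f4 (1153 bases), H1f2 (840 bases) and H4c4 (770 bases). These 14 held 7 of the 10 highest members in unmarked cells, with a median level of 4.54 CPM and a median fold of means in cycling cells of 4.85. The 11 members annotated to at least 100 but under 700 bases past it had medians of 0.573 CPM and 19.4-fold, and the 37 annotated to under 100 bases 0.0985 CPM and 81.5-fold. A polyadenylation signal in the last 40 bases of an annotated transcript divided the 10 highest evenly. The 19 members with one held 5 of them (median of the 19, 1.86 CPM). The 47 members without one held 5 as well, H1f4, H4c4 and H1f3 among them (median of the 47, 0.121 CPM). Over the 62 members with a stem-loop, Spearman's rho between the annotated length past it and the level was 0.58 in unmarked cells and 0.25 in cycling cells, and with the fold it was -0.59 over 59 members. Members are not independent, since several are close copies and all come from the same libraries, and the length groups were chosen after the values were seen.

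There were exceptions on both sides. H2ac20, with 57 annotated bases past the stem-loop, H4c8, with 46, and H1f5, whose model ends before it (-46 bases), were among the 10 highest members of unmarked cells. H2bc22, with 1283 bases, had 0.0218 CPM there. A longer model also takes in reads that a shorter one leaves uncounted, and several models overlap: the model of H2bc6 overlaps part of H1f4 on the same strand and an edge of H4c4 on the other, and H2bc4 overlaps H2ac6 on the other strand. In all, 17 members overlapped another counted gene, and 26 shared more than 50% of their 90-base windows with another member, so that reads of these could have been split between copies or dropped. The gene models that the authors counted with are not given in the sources used here, and the part of annotation, overlap and capture in these levels was not tested.

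**Figure D4:**
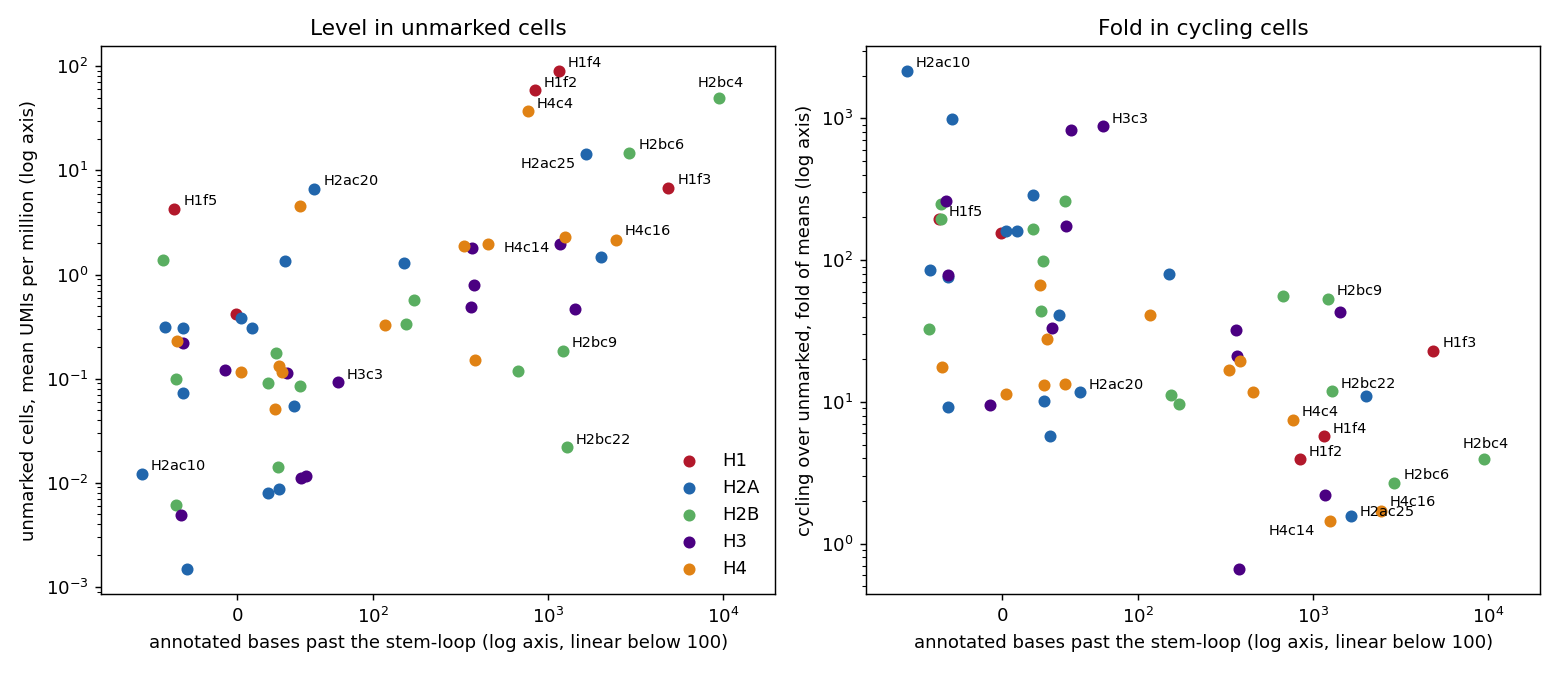
Level in unmarked cells (left, CPM, logarithmic) and fold of means in cycling over unmarked cells (right, logarithmic) of members with a stem-loop, against the annotated bases past the stem-loop (horizontal, linear below 100 and logarithmic above), coloured by family. Members annotated to at least 700 bases past it have a median of 4.54 CPM and a median fold of 4.85, those under 100 bases 0.0985 CPM and 81.5-fold, with H1f5 and H2ac20 high on the left without a long model.

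Many H2A and H2B genes stand head to head and share 1 promoter region. There were 11 such pairs with 175 to 305 bases between the gene starts. ATTTGCAT is the octamer bound by Pou2f factors such as Pou2f1 and known from H2B promoters. It was looked for on both strands, from 250 bases before to 50 after the most upstream annotated start of each gene. It occurred in 13 of 66 members (19.7%), 7 H2A and 6 H2B genes, and in 1.68% of all protein-coding genes. TATAAA, the TATA box, occurred in 51.5% of members and 13.7% of all genes, and CCAAT in 78.8% and 39.8%. CCAAT was in the window of 18 of 18 H2A genes and 3 of 13 H4 genes. No match says only that these letters are not in the window. The annotated start need not be that of the histone mRNA. The model of H2bc6, on the minus strand, starts at chr13:23805139, whereas its stem-loop lies within chr13:23769506-23769533.

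The 2 regions below are shown because, of the 5 pairs with both genes tested, their partners differ most in level. Both are intergenic in the annotation, lie between the starts of the 2 genes and are printed on the plus strand, with ATTTGCAT and TATAAA, or the same words on the other strand, in capitals. The first is chr13:23755395-23755569 between H2ac8 and H2bc8 and the second chr3:96128197-96128434 between H2ac20 and H2bc21.
H2ac8-H2bc8: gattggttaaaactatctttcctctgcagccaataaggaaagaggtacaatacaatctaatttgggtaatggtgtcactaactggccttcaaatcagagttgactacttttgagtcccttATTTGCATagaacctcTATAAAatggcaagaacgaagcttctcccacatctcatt
H2ac20-H2bc21: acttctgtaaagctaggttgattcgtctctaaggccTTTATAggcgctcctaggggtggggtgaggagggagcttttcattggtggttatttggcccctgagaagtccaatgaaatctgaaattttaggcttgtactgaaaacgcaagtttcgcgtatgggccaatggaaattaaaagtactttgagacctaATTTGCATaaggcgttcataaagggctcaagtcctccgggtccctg

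In cycling cells H2ac8 was at 103 ± 40.5 CPM and H2bc8 at 3.70 ± 0.879 CPM (mean ± SD, n = 3), and H2ac8 was 23.4-, 42.5- and 18.9-fold higher in libraries 1, 2 and 3. H2ac20 was at 77.4 ± 16.2 CPM and H2bc21 at 6.22 ± 3.20 CPM, with ratios of 16.1, 18.5 and 8.2. Other pairs were closer. H2ac15 and H2bc15 were at 26.2 ± 10.8 and 19.1 ± 11 CPM with ratios of 1.21, 1.42 and 1.85, and for H2ac7 and H2bc7 the H2B gene was the higher one (ratios 0.357, 0.250 and 0.273). The copies within these families share sequence, and the capture of each mRNA was not known, so a ratio of CPM between partners is a ratio of counted molecules.

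Levels were next taken by cell class in unmarked cells only, as a description with no test. Classes were named "-like" from fixed marker genes in classes of at least 20 cells a library, and 18339 of the kept cells lay in clusters left without a name. A further cluster, cluster 1 with 268 cells, met the neuroendocrine list but is given no cell type name here. Calca, Tg, Scg2 and Chga were among its leading genes, and Tg marks thyroid follicular cells. These clusters are from resolution 1. Coarser clustering (0.5) and finer clustering (2) both gave a Neuroendocrine-like cluster of 89 cells, and the finer one also a Thyroid follicular-like cluster of 204 cells. By the mean, the summed level of the classes and cluster 1 was highest in Ciliated-like cells (491, 543 and 568 CPM in libraries 1, 2 and 3) and cluster 1 (550.4, 623 and 430.0 CPM). At the finer clustering it was 558 and 652 CPM in the Neuroendocrine-like cells of libraries 1 and 2, with too few cells (13) in library 3, and 542, 557 and 313 CPM in the Thyroid follicular-like cells. Muscle satellite-like cells had 419, 557 and 286 CPM and Basal-like cells 330.1, 439 and 239 CPM. Secretory-like cells had the lowest mean, with 214, 277 and 188 CPM, though Endothelial-like and Macrophage-like cells were lower in library 2. Ciliated-like cells and cluster 1 lay above Basal-like and Secretory-like cells within each library. Their own ranges overlapped each other and that of Muscle satellite-like cells, as did those of Basal-like, Fibroblast-like (328 ± 81.4 CPM), Suprabasal squamous-like (308 ± 30.8 CPM) and Endothelial-like cells (253 ± 54.2 CPM). Median depth differed between classes, from 5216 to 10686 UMIs in Ciliated-like and from 17097 to 25347 UMIs in cluster 1.

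Single members made these differences. H2bc4 was at 191, 191 and 262 CPM in Ciliated-like cells and 187, 153 and 132 CPM in cluster 1, against 37.5, 31.5 and 39.9 CPM in Basal-like cells, and the ranges did not overlap. The Ciliated-like class joined 2 clusters of unlike depth. Cluster 17 (median 19744 UMIs) had H2bc4 at 157, 172 and 209 CPM and a summed level of 436, 496 and 489 CPM, and cluster 18 (median 4669 UMIs) had 306, 252 and 310.2 CPM and 677, 688 and 641 CPM. The part of depth in this was not tested. At the finer clustering H2bc4 was at 158 and 116 CPM in Neuroendocrine-like cells and 210.3, 165 and 80.1 CPM in Thyroid follicular-like cells. Suprabasal squamous-like cells came between Ciliated-like and Basal-like cells, with 99.1, 72.2 and 93.4 CPM. H1f2 was at 116, 148 and 156 CPM in Ciliated-like and 27.7, 35.0 and 28.8 CPM in Secretory-like cells. Of the named classes, H1f4 was by the mean highest in Muscle satellite-like cells, 131, 189 and 93.6 CPM, followed by Basal-like cells with 111, 149.9 and 71.6 CPM, and their ranges overlapped. Cluster 9, which has no name, had 150.1, 199.9 and 115 CPM.

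H2ac25 was at 24.4, 31.9 and 35.8 CPM in cluster 1, above the 11 to 13.2 CPM of Ciliated-like and the 13.2 to 16.1 CPM of Basal-like cells. At the finer clustering it was at 32.3 and 37.7 CPM in Neuroendocrine-like and 16.5, 25.1 and 15.4 CPM in Thyroid follicular-like cells, and the latter overlapped Basal-like cells. H1f3 was at 12.1, 12.5 and 8.59 CPM in Basal-like cells and 0.726, 0.405 and 0.484 CPM in Fibroblast-like cells, and at 15.1 and 14.5 CPM in the Macrophage-like cells of the 2 libraries that had at least 20 of them. H2bc6 was at 35.5, 30.7 and 33.0 CPM in Ciliated-like against 9.67, 10.4 and 9.56 CPM in Basal-like cells.

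H1f5 in unmarked cells was at 8.17, 8.37 and 5.94 CPM in Basal-like cells, and at 1.28, 0.980 and 1.92 CPM in Secretory-like cells, which were slightly shallower. In Muscle satellite-like cells, H1f5 was at 3.34, 9.11 and 5.68 CPM in cluster 10 and at 4.33, 15.5 and 3.57 CPM in cluster 13 (52 unmarked cells in library 3). These values overlapped those of Basal-like cells, though only 1 of 2818 Muscle satellite-like cells was cycling. H1f5 was at 9.48 and 10.9 CPM in the Macrophage-like cells of libraries 1 and 2. It had a UMI in 8.04%, 9.52% and 6.94% of unmarked Basal-like cells and in 1.61%, 1.46% and 2.22% of unmarked Secretory-like cells, at median depths of 14491, 18392 and 14981 and of 12232, 15565 and 12902 UMIs. The highest level was in the 1303 unmarked cells that library 3 had in cluster 25, 28.6 CPM, where H3c3 was at 1.64 CPM against 0.150 CPM in all unmarked cells of that library. Of the 3759 cells of cluster 25, 2429 had 1 to 3 markers. Without cluster 25 H1f5 was at 3.28 CPM in the unmarked cells of library 3. Basal-like cells were the named class with the most cycling cells by count, 2.39%, 0.525% and 3.41% of them, though in library 2 the share was higher in Ciliated-like cells (0.694%). An unmarked cell may still be in the cycle with its markers missed, and its part in the H1f5 level was not tested.

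**Figure D5:**
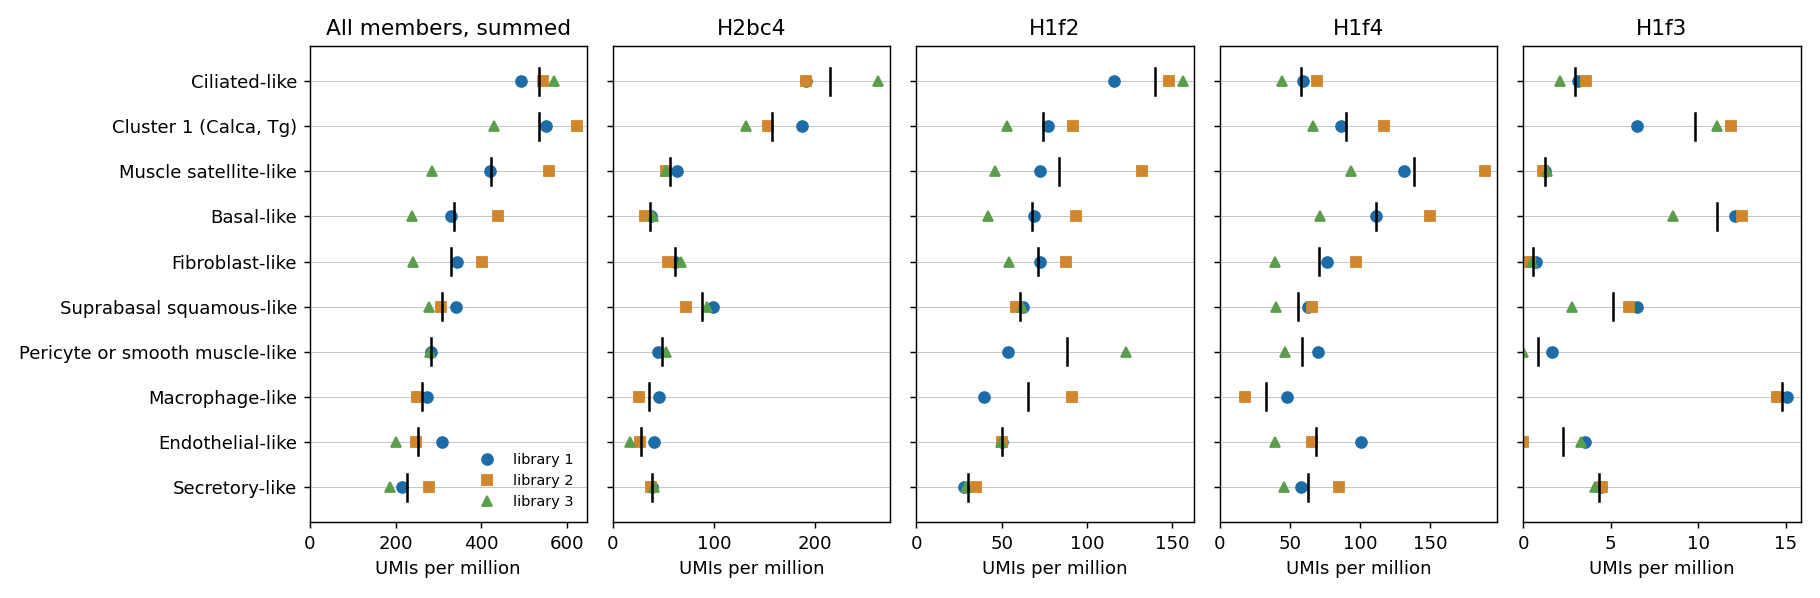
Levels in unmarked cells of each named class in CPM (horizontal), and of cluster 1, 1 point per library with at least 20 cells and a black bar at the mean. Ciliated-like cells and cluster 1 have the highest summed level (means 534 and 534 CPM) and the highest H2bc4 level (215 and 157 CPM), whereas H1f4 is highest, of the classes shown, in Muscle satellite-like cells (138 CPM).

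Lrig1+ cells, those with an Lrig1 UMI, were compared with Lrig1- cells, those without, since Lrig1 is the gene the study follows. The member sum was 358, 413 and 296 CPM in Lrig1+ and 368, 419 and 311 CPM in Lrig1- cells of libraries 1, 2 and 3, 0.973, 0.986 and 0.951 of it. The sums themselves were not tested. No member passed in edgeR among 51 tested, none had an unadjusted p under 0.05, and DESeq2 called none. Of all 19724 genes none passed in edgeR, and 2484 had an unadjusted p under 0.05. With the library as a block, 2 members were lower in Lrig1+ cells and none was higher, where 12.7% of all genes were called lower and 10.2% higher. H2ac10 was at 0.293, 0.106 and 0.408 CPM against 0.640, 0.255 and 0.711 CPM (log2 -0.97 ± 0.22, edgeR adjusted p = 0.0388 under the block). H1f5 was at 14.7, 8.42 and 19.5 CPM against 16.5, 14.4 and 29.8 CPM (log2 -0.48 ± 0.12, edgeR adjusted p = 0.0488 under the block).

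Both were lower in all 3 libraries. Leaving out library 2 or library 3 under the block left no member called, and with looser limits on cells the log2 changes were 0.10 for H1f5 and 0.09 for H2ac10. Over the members, 18 of 51 tested had a positive log2 change in the main fit (median -0.06) and 46 of 56 with looser limits (median 0.12). The direction over the members thus turned with the limits. The share of cycling cells was 0.692%, 0.266% and 1.28% in Lrig1+ and 0.673%, 0.392% and 1.60% in Lrig1- cells, at median depths of 15154, 17843 and 14695 and of 7492, 9817 and 6454 UMIs. The part of cycling cells in the values of H2ac10 and H1f5 was not tested.

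Cells with replication markers but at most 1 cycling marker were few. With at least 2 of the 5 replication markers there were 72, 62 and 364 cells, set against 11308, 5929 and 16272 cells with none of the 10 markers. Median depths were 19558, 26196 and 19194 UMIs against 10079, 13006 and 10715 UMIs. Of the marked cells 23, 24 and 137 were Basal-like, and of the others 1375, 1259 and 2499. The part of depth and cell class in the values below was not tested. The members summed to 313, 349 and 191 CPM in the marked cells of libraries 1, 2 and 3 and to 313, 396 and 237 CPM in the others. The marked sums were thus 0.999, 0.882 and 0.805 of the others, with no rise in any library. These sums were not tested. No member passed among 33 tested in edgeR or 26 in DESeq2, and 3 had an unadjusted p under 0.05. Of all 18042 genes none passed in edgeR, with 2044 at an unadjusted p under 0.05. With the library as a block 1 member was lower, where 4.75% of all genes were called lower and 2.80% higher. It was H1f2, with 33.0, 54.5 and 25.1 CPM against 56.7, 76.2 and 43.4 CPM (log2 -0.69 ± 0.12, edgeR adjusted p = 0.00587 under the block). H1f5 was at 8.61, 6.97 and 9.97 CPM against 3.22, 5.62 and 3.70 CPM, apart in all libraries but not past the test (edgeR adjusted p = 0.356, and 0.103 under the block).

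Related genes were read from fixed lists. Of 11 replication-independent histones, variants made outside S phase as well, 10 were higher in cycling cells, against 15.0% of all genes, with a median log2 change of 1.67 against 4.96 over the tested members and -0.20 over all genes. Cenpa, the H3 variant of centromeres, had 318, 402 and 371 CPM in cycling cells against 2.24, 1.13 and 2.79 CPM. H2ax, which marks DNA breaks, had 233, 199.5 and 269.9 CPM against 17.5, 16.5 and 21.7 CPM, and the linker variant H1f10 had 139, 168 and 137 CPM against 10.3, 12.1 and 13 CPM. H2az1 was the most abundant of the 4, at 1737, 1642 and 2119.8 CPM against 214, 202 and 279 CPM. Within cycling cells, 1 of 11 rose with replication markers (H2ax, log2 1.89 ± 0.21) and 1 fell (Cenpa, log2 -1.05 ± 0.25), where 5.05% of all genes were called higher and 0.466% lower. H1f0, a linker histone known from resting cells, did not separate these groups, with 392, 624 and 455 CPM against 443, 256 and 478 CPM. Against unmarked cells it was higher in cycling cells, with 423, 404 and 489.8 CPM against 131, 151 and 164 CPM (log2 1.67 ± 0.14, edgeR adjusted p = 1.0e-04).

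Of 13 genes for the synthesis and processing of histone mRNA, 7 were higher in cycling cells (9 under the block), against 15.0% of all genes (17.2% under the block), with a median log2 change of 0.77. Slbp, which binds the hairpins shown above, had 115, 99.8 and 135 CPM in cycling cells against 35.8, 39.5 and 45.8 CPM (log2 1.66 ± 0.15, edgeR adjusted p = 1.8e-04). With replication markers it was at 245, 205 and 265 CPM, and without them at 30.5, 27.2 and 45.7 CPM (log2 2.71 ± 0.25). In cycling cells without replication markers Slbp was thus near its level in unmarked cells. Eri1, the exonuclease that trims the histone 3′ end, rose by 1.27 ± 0.24 in cycling cells, Srrt by 1.07 ± 0.18, and Zfp473, a protein of the 3′ processing machinery at under 4 CPM, by 1.87 ± 0.52 on the log2 scale. Npat, the coactivator of histone genes, had 76.1, 94.8 and 54.8 CPM with replication markers against 25.9, 21.8 and 28.7 CPM without (log2 1.4 ± 0.29), and 3 of 10 genes of this list rose there (5 of 10 under the block, with Casp8ap2 and Pou2f1 added), against 5.05% of all genes (7.51% under the block).

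Of 14 histone chaperones, 9 were higher in cycling cells, against 15.0% of all genes, with a median log2 change of 0.80. Asf1b, the chaperone of H3 and H4 in dividing cells, had 82.2, 62.1 and 102 CPM against 0.794, 0.778 and 1.29 CPM (log2 6.56 ± 0.29). Its paralog Asf1a had 50.8, 55.6 and 56.6 CPM against 31.0, 31.7 and 35.6 CPM. Chaf1a and Chaf1b, subunits of the factor that deposits H3 and H4 at the fork, rose by 2.93 ± 0.22 and 3.07 ± 0.38, and Mcm2, a helicase subunit that also binds histones, by 2.71 ± 0.33. Chaperones of replication-independent deposition, Hira, Cabin1, Ubn1, Daxx and Atrx, did not pass, with log2 changes from -0.09 to 0.30.

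The lists of the cell cycle set the scale. Of 49 genes tested from the G2 and M list, 49 were higher in cycling cells (median log2 6.47), as were 40 of 43 S phase genes (median log2 2.71), against 15.0% of all genes. In this comparison the choice of cells by 5 genes of G2 and M sets part of that. All 5 replication markers rose as well. Within cycling cells, 35 of 37 S phase genes rose with the replication markers (median log2 2.99), and so did 16 of 49 genes of the G2 and M list, with 1 lower (25 and 1 under the block), against the 5.05% of all genes higher and 0.466% lower (7.51% and 1.92% under the block). These cells were chosen by 5 genes of the S phase list, and some of its other genes passed the filter through the cells with the markers. Chaf1b, for example, was at 0, 0 and 2.66 CPM without them and Mcm2 at 0, 0 and 4.78 CPM. The count of 35 thus gives no support of its own. The lists share genes: Slbp, Nasp, Casp8ap2, Chaf1b, Mcm2 and the 5 replication markers are also in the S phase list, and Cenpa in that of G2 and M.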

How the data were processed

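Each of the 3 libraries was made with the Chromium GEM-X Single Cell 3′ kit. The authors aligned reads to GRCm39 (mm39) with Cell Ranger 8.0.1 and deposited UMI counts per gene and barcode, as whole numbers and not normalized. The gene annotation of that count is not given in the sources used here. The deposited barcodes include cells outside the study's limits.

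Cells were kept if they had 1000 to 40000 UMIs over 500 to 8000 genes, with no more than 8% of UMIs from mitochondrial genes. The study's methods print these limits with UMIs and genes exchanged, which was taken as a slip. Doublets scored by simulated neighbours were then removed at 0.4% per 1000 barcodes. The 3 libraries held 211727921, 147898790 and 413632222 UMIs. Cells were clustered with scanpy 1.11.5 (2000 variable genes without the members, Lrig1 and the cell cycle genes, 15 components, 15 neighbours, Leiden resolution 1). Libraries were not integrated. Clusters were named where at least 3 and 40% of a class's markers were raised by log2 0.5 in at least 10% of cells, a rule set after seeing clusters. A name was withheld where more markers of another class were among the 10 leading genes (clusters 4 and 5), where over 95% of cells came from 1 library (cluster 25), or where cells were far shallower than their library and no marker led.

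UMIs were added up for each cell group of a library. The quasi-likelihood test of edgeR 4.0.16 (R 4.3.3) was run on these sums, two-sided, with TMM scaling and genes chosen by filterByExpr. The p-values were adjusted by Benjamini-Hochberg over all genes, with a threshold of 0.05. DESeq2 1.42.0 was tried as well. Replicates are libraries of separate pools, so p-values of the main fit measure the spread between 3 pools. Under the block, p-values measure the spread of the differences within libraries. The groups compared were drawn from 1 pool of animals in each library, which pairs their sums: over genes, their deviations from the group means correlated by 0.0455 to 0.143 (cycling against unmarked), 0.0510 to 0.257 (within cycling cells), 0.278 to 0.474 (replication-marked) and 0.582 to 0.722 (Lrig1+ against Lrig1-). The main fit has no block, as the study's methods name none.

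The planned sums of at least 3 replication markers with at most 1 cycling marker reached 20 cells in 1 library only, so cells with at least 2 were used instead. The test was also run on simulated counts with a fixed dispersion and unpaired sums, in which only well-counted genes were changed. That run says nothing on paired sums or on members with few UMIs. Members and lists were chosen with earlier results of these data known. Values per library are given for the 10 highest members of cycling and of unmarked cells, the 5 largest rises and falls in cycling cells, and the 3 largest in each other comparison; of other lists, up to 4 genes. H2bc21, H2bc22, H3c14, H3c15, H4c9, H4c14, H4c16, the promoter pairs, H1f0, Npat and Asf1a were named after their values were seen. Stem-loops, promoters and motifs were read from GRCm39 with pysam 0.24.0. Intervals cover counting error only.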

Additional observations from a re-analysis of the deposited data

How the results depend on the processing

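Of 415 alternative values of named members, 399 kept direction and side of the threshold, 8 newly passed, 2 no longer passed and 6 changed sign. For cycling against unmarked cells, 44 to 50 members were higher with a library left out (45 to 53 under the replicate block), 50 with the block, 55 in DESeq2, 57 with looser limits and 32, of 37 tested, with cells thinned to 5000 UMIs. H2ac25 was at -0.13 when thinned. Over all genes, 2702 were higher and 3687 lower, 1410 and 1052 in Basal-like cells, 1297 and 1925 when thinned, and 1378 to 1654 and 1335 to 2307 with a library left out. The block changed the call of H2bc21 and of no other member. Within cycling cells, 20 members were higher, 11 (of 15 tested) in Basal-like cells, 1 (of 8 tested, 2 libraries) when thinned, 15 to 24 with a library left out (23 to 24 under the block). The lower call of H2bc4 was lost when thinned (0 members lower) and the log2 change was then -2.37, with H1f4 at 1.14. The sign of H1f2 turned to 0.26 when thinned, 0.23 without library 1 and 0.13 without it under the block, with -0.40 as the lowest value with a library left out. Over all genes there, 433 were higher and 40 lower, 644 and 165 under the block, 231 and 16 in Basal-like cells, 30 and 4 when thinned, and 175 to 522 and 3 to 67 with a library left out. The replication-marked comparison had 0 members called and 1 lower under the block, with 1 lower whichever library was left out and 0 or 1 higher. Its DESeq2 fit called 261 genes higher and 239 lower, the block 506 and 857, a fit without the filter on low counts 11 and 13, one of Basal-like cells 39 and 4, and one without cluster 25 5 and 13. The thinned version of it could not be fitted, since 1 library had sums. For Lrig1+ against Lrig1- cells, the block gave 2 members lower, 0 to 1 with a library left out, and 2021 genes higher and 2507 lower (17 to 1456 and 468 to 2262 with a library left out), DESeq2 0 members and 150 and 475 genes, and looser limits turned H1f5 to 0.10 and H2ac10 to 0.09. The block changed no other member's call than those named. The mean share of cells with any member UMI was 94.6% in cycling and 70.9% in unmarked cells at 5000 UMIs, and 79.9% and 42.9% at 2000 UMIs. Cluster 25, left out after the data were seen, left 49 and 20 members higher. The causes were not tested. Low members rest on few UMIs: 3 counts equal 0.390 to 4.91 CPM in cycling cells and 0.0132 to 0.0303 CPM in unmarked cells.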
